A study of Homo sapiens with 30 samples.

Results

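A set of 132 microRNA genes was well counted in the small RNA libraries of U-87 MG, an established glioblastoma line, beside the let-7 and miR-100/miR-10 genes that took most of the counts. Its members are the microRNA genes of the GENCODE annotation with at least 100 forward-strand counts in each of 6 libraries, 1 for each of 6 lines. Genes named MIRLET7 and MIR100, MIR99A, MIR99B, MIR10A and MIR10B were left out by name. Of 1877 microRNA genes in the tables, 140 passed the minimum in every library, 8 of them were left out by name, and 41 passed in some libraries only. The members were thus chosen by the counts of these same libraries, so their levels are given as a description.

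The series asked how parts of the RNA-binding protein LARP6 shape its binding in cells, and holds 18 iCLIP and 12 input samples. Parental cells carried no variant. The other 5 lines had been transduced with lentivirus and selected with puromycin, and carried a doxycycline-inducible, codon-optimised, myc-tagged LARP6: the full-length protein (FL), or the protein without the N-terminal disordered region (ΔNTR), the La-module (ΔLa-module), both of these (ΔNTD) or the C-terminal region (ΔCTR). Per the labels, doxycycline was given at 60 ng/mL for 24 h. All lines kept their own LARP6 gene, which stood at 51.7 to 74.9 CPM in the long RNA libraries (CPM, counts scaled to a library total of 1000000). Parental cells lacked the variant, the virus and the selection at once, so these cannot be told apart in any comparison with parental. All 5 comparisons also share the same parental library.

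A microRNA gene is transcribed as a long primary transcript, from which the nuclear enzyme DROSHA cuts a hairpin and the cytoplasmic enzyme DICER1 a short duplex. An Argonaute protein keeps 1 strand of the duplex and pairs with mRNAs mainly through the seed, bases 2 to 8 of the mature strand. Genes that lie close together often share a primary transcript, and genes with the same seed form a family. In glioblastoma the pair miR-221 and miR-222 is known for high levels and for repressing the cell cycle inhibitor CDKN1B.

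RefSeq, on GRCh38, gave 226 mature strands (arms) for 124 of the members. The other 8, without a strand or seed here, were MIR151A, MIR30B, MIR30D, MIR320A, MIR4326, MIR505, MIR598 and MIR641. The strands below belong to MIR222 and MIR221, to the chromosome 14 domain described further on, and to members that stood far apart within a family or between lines. Capitals mark the seed. The tables count reads per gene, so they do not tell which arm of a hairpin was read.
hsa-miR-222-3p: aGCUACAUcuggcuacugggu
hsa-miR-221-3p: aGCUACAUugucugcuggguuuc
hsa-miR-127-3p: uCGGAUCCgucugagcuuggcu
hsa-miR-379-3p: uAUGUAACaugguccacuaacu
hsa-miR-411-3p: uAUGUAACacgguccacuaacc
hsa-miR-494-3p: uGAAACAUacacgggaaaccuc
hsa-miR-654-3p: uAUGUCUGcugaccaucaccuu
hsa-miR-409-3p: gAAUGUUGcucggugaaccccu
hsa-miR-370-3p: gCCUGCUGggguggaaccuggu
hsa-miR-148a-3p: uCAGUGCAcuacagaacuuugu
hsa-miR-148b-3p: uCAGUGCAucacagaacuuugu
hsa-miR-152-3p: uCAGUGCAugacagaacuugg
hsa-miR-4521: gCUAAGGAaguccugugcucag
hsa-miR-145-5p: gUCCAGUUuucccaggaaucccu
hsa-miR-98-5p: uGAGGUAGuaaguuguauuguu
The last of these, from MIR98, has GAGGUAG as its seed, which is the let-7 seed; the gene stayed in the set because the rule went by gene name.

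The 6 small RNA libraries (SE50, single-end reads of 50 nt) held 6181270 to 10307756 counts in genes, and 96.7 to 97.7% of these were in microRNA genes. MIR100 alone took 65.8 (ΔNTR) to 75.5% (FL). The members took 14.1 (FL) to 22.2% (ΔNTR). Reads ambiguous between genes made up 40.4 (ΔNTD) to 54.0% (ΔNTR) of all SE50 reads. Each line had 1 library, so no spread between replicates could be had and no difference was tested. Intervals of 95% cover counting error only. Levels are CPM with edgeR's TMM scaling factors, not divided by length since mature microRNAs are alike in length, and differences are on the log2(CPM + 1) scale. The parallel long RNA libraries (PE150) held the mesenchymal markers VIM, CD44, FN1 and TNC at 1591 CPM or more in every line. CHI3L1 and NES, also listed as markers of such a line, stood lower, at 84.2 to 111 and 52.0 to 57.8 CPM. SOX2, a stem cell factor of many gliomas, had at most 1 count. Of 6 genes of other cell types, PTPRC (leukocytes) had at most 2 counts, RBFOX3 (neurons) at most 4 and ALB (liver) at most 9, while PECAM1 (endothelium) had 28 to 65, EPCAM (epithelium) 37 to 67 and MBP (oligodendrocytes) 50 to 104; their part in the results was not tested.

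Mean levels of the members ran from 17.5 to 31999 CPM, with a median of 138 CPM. MIR222 was the highest in every line, and the 10 highest members held 64.7 to 68.5% of the members' counts. These 10 were MIR222, MIR27B, MIR221, MIR30D, MIR29A, MIR25, MIR151A, MIR30A, MIR125A and MIR335. Of the 132 members, 5 averaged more than 10000 CPM, 20 lay between 1000 and 10000, 52 between 100 and 1000, and 55 lower, of which 34 were under 50. The order of levels in parental cells was kept in the other lines with a Spearman rho of 0.954 to 0.989 over the 132 genes, which are not independent replicates.

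MIR222 and MIR221 lie next to each other on chromosome X (GRCh38, minus strand), at 45747015 to 45747124 and 45746157 to 45746266. MIR222 lies in an intron of the noncoding gene MIR222HG, and MIR221 overlaps one of its exons. Reads over both MIR221 and that exon were not counted, and the part of this in the MIR221 values was not tested. MIR222 stood at 28251 CPM in the parental line, 26844 in FL, 36323 in ΔNTR, 35576 in ΔLa-module, 37736 in ΔNTD and 27260 in ΔCTR. With TMM factors the 6 values fell into a lower group of parental, FL and ΔCTR and a higher group of the other 3. This grouping depended on the scaling, since with plain library totals ΔCTR lay above ΔLa-module. MIR221 stood at 14448, 12813, 17409, 14185, 12825 and 14991 CPM in the same order. Its highest value was in ΔNTR, and with TMM factors ΔNTD was at the low end with FL, unlike MIR222. With library totals, totals without MIR100 or TMM factors over microRNA genes, both MIR221 and MIR222 were above parental in ΔNTD. With TMM factors the counts of both genes, all arms together, summed to 39657 CPM in FL, the lowest, and 53732 CPM in ΔNTR, the highest.

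MIR27B, whose product is known for repressing genes of fat and muscle differentiation, had 27088, 17652, 24589, 19281, 17964 and 22218 CPM, with parental highest. MIR29A, known for repressing collagen and other matrix genes, had 13930, 7695, 13345, 7083, 11023 and 11589 CPM. The FL and ΔLa-module levels of MIR29A were 0.552 (0.547 to 0.558) and 0.508 (0.503 to 0.514) times that of parental cells, and the other 4 levels lay above both. MIR29A overlaps an exon of LINC-PINT, and reads over both genes were not counted. MIR335, in an intron of the imprinted gene MEST, had 3877, 4055, 6094, 4810, 3241 and 4389 CPM and was highest in ΔNTR. MIR125A and MIR125B1 share the seed CCCUGAG. They are known to group with MIR99B and MIR100, which the rule left out, and MIR125B1 lies in an intron of MIR100HG. The distance limit used below for clusters was applied to members only. MIR125A was highest in ΔNTD (6021 CPM) and lowest in ΔCTR (3779 CPM). It overlaps an exon of SPACA6, and the part of uncounted shared reads in its values and in those of MIR29A was not tested.

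Over the 6 lines the ratio of a member's highest to its lowest level had a median of 1.71. It was under 1.5 for 40 members and at least 2 for 43. The most even members were MIR501 (1.12), MIR361 (1.21), MIR106B (1.23), MIR30D (1.25) and MIR7976 (1.26). The ratio was at least 3 for 7 members, and the highest were MIR494 (4.00), MIR379 (3.66), MIR3681 (3.49), MIR148A (3.31) and MIR4521 (3.25). MIR494 and MIR379 are neighbours on chromosome 14. MIR494 also lay just inside the minimum, with 103 to 524 counts, as did MIR548K (103 to 310) and MIR1262 (111 to 194). Just outside it were MIR138-2 (99 to 337), MIR449A (98 to 170) and MIR2355 (97 to 153).

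The comparison with parental cells asked how the members stood in each line. Compared with parental cells, 15 members in FL were at least 1.5-fold higher and 32 at least 1.5-fold lower. Among all 227 genes with at least 100 counts in every SE50 library, of which the members are 132, these shares were 15.9 and 18.1%, against 11.4 and 24.2% of the members. In ΔNTR the members counted 4 higher and 8 lower (all genes 15.0 and 6.61%). ΔLa-module had 12 higher and 31 lower (19.8 and 18.1%). ΔNTD had 1 higher and 32 lower (10.1 and 17.2%), and ΔCTR 2 higher and 15 lower (10.1 and 7.05%). Each line therefore had more members lower than higher. At 2-fold, FL had 3 higher and 13 lower (all genes 4.85 and 7.05%), ΔNTR 0 and 1 (4.41 and 0.881%), ΔLa-module 4 and 11 (8.81 and 5.73%), ΔNTD 0 and 14 (2.20 and 6.17%), and ΔCTR 0 and 2 (3.08 and 0.881%).

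The median difference of the members was -0.25 in FL, -0.05 in ΔNTR, -0.17 in ΔLa-module, -0.33 in ΔNTD and -0.26 in ΔCTR, all log2. For all 227 genes it was -0.06, -0.00, -0.01, -0.18 and -0.13. Other scalings moved the median of all 227 genes by -0.22 to 0.35, and the medians of the members moved with it. Relative to all 227 genes the members' median was -0.20 to -0.19 in FL, -0.05 in ΔNTR, -0.16 in ΔLa-module, -0.15 in ΔNTD and -0.13 to -0.12 in ΔCTR under every scaling of the forward-strand counts. A scaling shifts all genes of a library alike, so these values could hardly move, and their steadiness is no check on them. The split between higher and lower members depended on the scaling. In FL it was 10 and 48 with plain library totals, 20 and 24 with totals that leave out MIR100, and 19 and 24 with TMM factors over microRNA genes alone. In ΔNTR it was 7 and 8 with library totals. In ΔLa-module it was 9 and 51 with library totals and 15 and 24 with TMM factors over microRNA genes. In ΔNTD these settings gave 4 and 16, 3 and 19 (totals without MIR100) and 6 and 15, and in ΔCTR 3 and 7 with either of library totals and TMM factors over microRNA genes.

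**Figure D1:**
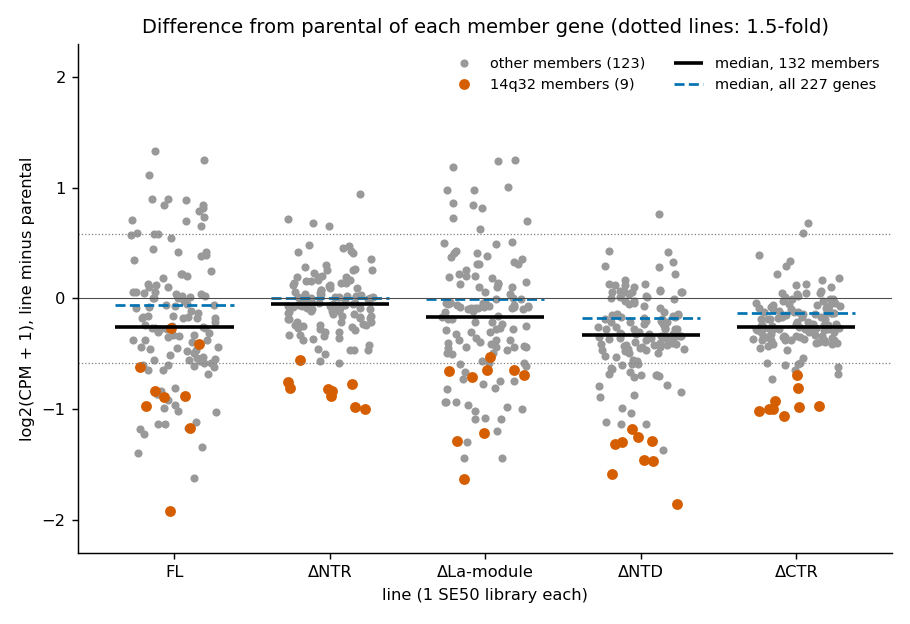
Difference of each of the 132 members from parental cells on the log2(CPM + 1) scale, by line, with 9 members of the 14q32 domain in orange and the other 123 in grey. Black bars are the medians of the members and dashed blue bars those of all 227 genes; the black bar is the lower of the 2 in every line, and the orange points all lie under 0.

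A group of 9 members lies in the imprinted domain at 14q32, where maternally expressed noncoding genes (MEG3, MEG8, MEG9) carry a long row of microRNA genes. In GRCh38 the 9 genes span positions 100869060 to 101065378 of chromosome 14, all on the plus strand. They are MIR493, MIR127, MIR370, MIR379, MIR411, MIR494, MIR654, MIR381 and MIR409. The domain was singled out after the values were seen, from the members that were lowest against parental. MIR127 overlaps an exon of MIR493HG, so reads that both genes hold were not counted.

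MIR127, which is known for targeting the imprinted retrotransposon-like gene RTL1 on the opposite strand, had 1184 CPM in the parental line, 642 in FL, 659 in ΔNTR, 722 in ΔLa-module, 431 in ΔNTD and 584 in ΔCTR. MIR381 had 763, 635, 448, 529, 275 and 385 CPM. MIR379 had 427, 321, 213, 264, 116 and 204 CPM. In these 3 genes parental cells were highest and ΔNTD lowest. MIR409 had 232, 129, 131, 146, 102 and 116 CPM. MIR654 had 185, 81.5, 93.1, 74.8, 75.1 and 92.2 CPM, and its 5 transduced lines lay close together. The 4 others had 52.6 (MIR494) to 110 CPM (MIR411) in parental cells, and MIR494 was lowest in FL, at 13.1 CPM. Parental cells held the highest level of the 6 for each of the 9, and for 46 of the 123 members elsewhere.

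Summed over the 9 genes the level was 3148 CPM in the parental line, 1992 in FL, 1756 in ΔNTR, 1922 in ΔLa-module, 1134 in ΔNTD and 1582 in ΔCTR. The ratio to parental was 0.633 (0.621 to 0.645) in FL, 0.558 (0.546 to 0.569) in ΔNTR, 0.610 (0.598 to 0.623) in ΔLa-module, 0.360 (0.353 to 0.368) in ΔNTD and 0.502 (0.492 to 0.513) in ΔCTR. The median difference of the 9 was -0.88, -0.82, -0.69, -1.32 and -0.98 log2 in these lines, and that of the 123 members elsewhere -0.18, -0.05, -0.10, -0.31 and -0.24. The gap between both medians was -0.70, -0.78, -0.59, -1.01 and -0.75. Another scaling shifts all genes of a library alike, so it leaves this gap almost unchanged by construction and is no check on it. All 9 were lower than parental in every line under each scaling. Most members elsewhere were lower too: with TMM factors 78 of the 123 in FL, 73 in ΔNTR, 83 in ΔLa-module, 96 in ΔNTD and 105 in ΔCTR.

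The parental level was at least 1.5-fold above every other line for 6 members, MIR127, MIR370, MIR409, MIR411, MIR494 and MIR654. They are all in the domain, and they are also the full count among the 227 genes (2.64%). Under the other scalings 3 to 7 genes met this, each time from the domain. No member was at least 1.5-fold lower in parental cells than in every other line, against 9 of the 227 genes (3.96%), which were noncoding RNA genes such as GAS5, SNHG1 and SNORD17 and the protein-coding genes MRPS22 and ZMYM2.

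The domain holds 44 further microRNA genes that are no members. Their summed level was 221 CPM in the parental line, 115 in FL, 119 in ΔNTR, 82.5 in ΔLa-module, 93.5 in ΔNTD and 108 in ΔCTR, or 0.520, 0.539, 0.374, 0.424 and 0.490 times parental. They fell short of the minimum in at least 1 library and come from the same 6 libraries as the members, so they are no independent measure. Of the 22 with a mean of at least 10 counts, 20 were lower in FL, 22 in ΔNTR, 22 in ΔLa-module, 22 in ΔNTD and 21 in ΔCTR. That mean includes parental cells, and these genes missed the minimum in at least 1 library. Both choices can favour genes that are high in parental cells, so these counts are no support for the members. Most of the 123 members elsewhere were lower in these lines too, as given above. The C/D box small nucleolar RNA genes of the same domain, SNORD113 and SNORD114, held 31 to 49 counts per library over 39 genes. Their summed level was 3.11 CPM (2.11 to 4.42) in parental cells, 4.47 (3.11 to 6.21) in FL, 6.77 (5.01 to 8.95) in ΔNTR, 5.69 (4.01 to 7.85) in ΔLa-module, 4.06 (2.96 to 5.43) in ΔNTD and 5.84 (4.19 to 7.93) in ΔCTR. Parental cells were thus lowest for these snoRNA genes, with intervals that overlap those of all lines but ΔNTR.

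In the PE150 libraries MEG3 had 4.32 CPM in the parental line, 4.23 in FL, 4.92 in ΔNTR, 3.04 in ΔLa-module, 2.48 in ΔNTD and 3.85 in ΔCTR. MEG8, whose introns hold MIR379, MIR411 and MIR494, had 2.98, 1.71, 2.48, 1.82, 1.75 and 1.44 CPM. These rest on 39 to 123 counts per library. MEG3 was lowest in ΔNTD, as the summed members were, but highest in ΔNTR, while the summed members were highest in parental cells. MEG8 was highest in parental cells, as they were, but lowest in ΔCTR. MEG9, whose introns hold MIR381 and MIR409, had 1 to 5 counts per library, too few to compare. DLK1, a paternally expressed gene of the domain, was at 0 in all 6, and RTL1 had at most 2 counts.

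**Figure D2:**
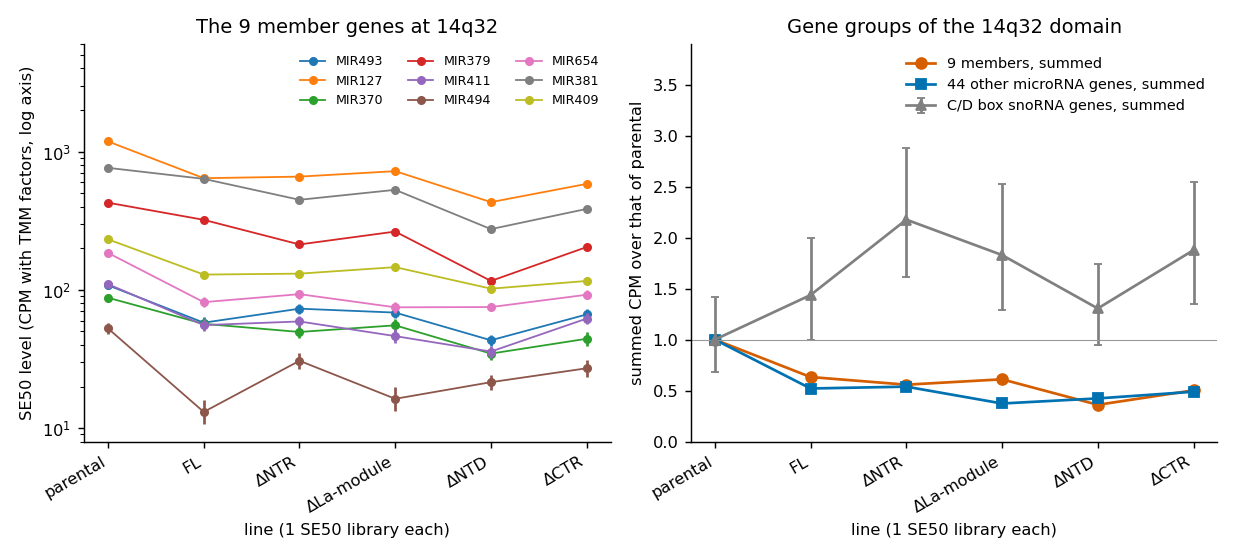
Left, levels of the 9 members of the 14q32 domain in each SE50 library (CPM with TMM factors, log axis, vertical bars 95% Poisson intervals, lines join the values of a gene). Right, summed CPM of the 9 members, of 44 other microRNA genes and of the C/D box snoRNA genes SNORD113 and SNORD114, each divided by its parental value, with Poisson bars on the snoRNA sum; both microRNA sums lie between 0.360 and 0.633 of parental and the snoRNA sum above 1 in all 5 lines.

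FL and ΔLa-module often held both of the lowest or both of the highest levels of the 6 lines. This was so for 55 members (41.7%), 31 at the low end and 24 at the high end. Of all 227 genes it was so for 39.6%, with 41 at the low end and 49 at the high end. Parental and ΔNTR stood together at an end for 40 members (30.3%), always the high end, and for 20.3% of all 227 genes. ΔNTD and ΔCTR did so for 36 members (27.3%), always at the low end, and for 24.2% of all 227 genes. MIR4521, on chromosome 17 and in no exon or intron on its strand, showed the pattern of FL and ΔLa-module most clearly. Its counts were 13279 (parental), 3389 (FL), 10178 (ΔNTR), 3179 (ΔLa-module), 11811 (ΔNTD) and 7907 (ΔCTR). Its level was 432 CPM in FL and 489 in ΔLa-module against 1066 to 1406 in the other 4 lines, with ratios to parental of 0.324 (0.312 to 0.337) and 0.367 (0.353 to 0.382). MIR93 (1264 and 1432 against 1989 to 2739 CPM) and MIR424 (105 and 145 against 217 to 279 CPM) were lower in the same pair.

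Members with both of their highest levels in these lines included MIR151A, in an intron of the focal adhesion kinase gene PTK2, with 10614 and 9996 CPM against 4506 to 6862. MIR148A had 306 and 239 CPM against 92.4 to 138, and MIR584 had 142 and 173 against 71.0 to 85.2. MIR4746 had 36.6 and 40.0 CPM against 16.1 to 18.9. MIR7974 had 458 CPM in both lines against 193 to 318. These members were picked for this order of the lines. FL and ΔLa-module were also the libraries with the most MIR100 (75.5 and 73.6% of gene counts, against 65.8 to 69.5%) and with the lowest TMM factors (0.859 and 0.827, against 0.966 to 1.19). The ambiguous share was 42.8% in ΔLa-module, FL too lay below the 50.8 to 54.0% of parental, ΔNTR and ΔCTR, and ΔNTD was lowest at 40.4%. The part of these in the pattern was not tested. The count of 55 was 51 to 69 under other settings and 87 with plain library totals, of which 76 were at the low end.

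A few members were high in other lines. MIR210, the classic microRNA induced by low oxygen, had 637 CPM in the parental line, 665 in FL, 1224 in ΔNTR, 901 in ΔLa-module, 1082 in ΔNTD and 1018 in ΔCTR. Parental and FL were thus below the other 4 lines. It stood highest of all members against parental in ΔNTR, ΔNTD and ΔCTR, with ratios of 1.92 (1.86 to 1.99), 1.70 (1.65 to 1.75) and 1.60 (1.55 to 1.65). MIR182, from a cluster known for its role in sensory cells, was 1.73 (1.67 to 1.80), 1.60 (1.54 to 1.67) and 2.01 (1.94 to 2.09) times parental in FL, ΔNTR and ΔLa-module, and 1.00 (0.963 to 1.04) times in ΔNTD. MIR3681, in an intron of its noncoding host, had 223, 300, 149, 297, 86.0 and 139 CPM, so that parental lay below FL and ΔLa-module and above the other 3 lines. MIR215, which p53 is known to induce, had 23.2, 42.2, 31.5, 42.2, 24.5 and 35.5 CPM.

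Members at most 10 kb apart on a strand formed 16 clusters of 39 genes. Neighbours differed in level by up to 47.3-fold, and they also differed in how they stood against parental. The 5 genes in an intron of CLCN5, a chloride channel gene on chromosome X, were all lower than parental in every line with TMM factors. MIR501 was close to parental, and its direction turned under some other scalings, to between 0.02 and 0.24 log2 in ΔNTD and ΔCTR and to 0.05 in ΔNTR with library totals and in ΔLa-module with TMM factors over microRNA genes. MIR660 had 169, 71.7, 138, 68.2, 93.3 and 133 CPM, while MIR501 from the same intron had 119, 107, 111, 114, 109 and 107 CPM. In ΔLa-module their differences were -1.30 and -0.06 log2. CLCN5 itself had 24.9, 23.8, 19.9, 21.3, 19.8 and 19.8 CPM in PE150.

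In the cluster on chromosome X from MIR450B to MIR424, different genes were low in different lines. MIR424 stood at -1.40 in FL and -0.28 in ΔNTD, while MIR450B stood at -0.18 and -1.12 and MIR542 at -0.38 and -1.14 log2. For each of the 3 genes the counting intervals of these levels in FL and ΔNTD do not overlap. MIR25, MIR93 and MIR106B lie within an intron or exon of MCM7, a replication gene whose PE150 level ran from 228 to 247 CPM. MIR93 stood at -1.12 in FL and -0.94 in ΔLa-module, MIR25 at -0.35 and -0.09, and MIR106B at -0.08 and 0.10. MIR93 overlaps an MCM7 exon and MIR424 an exon of MIR503HG, and reads over both genes were not counted; the part of this in their values was not tested.

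By bases 2 to 8 of the mature strands of the 124 members with an entry, 37 members fell into 17 families of at least 2, and 4 of these held at least 3. The miR-181 family (seed ACAUUCA), known for roles in T cell development and in glial cells, had 6 members. All 6 were lower than parental in FL, ΔNTR, ΔNTD and ΔCTR and 5 in ΔLa-module, while 4 to 6 were lower under the other scalings. MIR181A1 had 2109, 1031, 1525, 1056, 1527 and 1615 CPM, and MIR181A2, which encodes the same 5p strand on chromosome 9, had 556, 522, 405, 579, 400 and 371 CPM. In FL the first stood at -1.03 and the second at -0.09 log2. A strand found more than once in the genome gives reads that map to several places and were not counted. At least 1 such arm was listed for 20 of the 124 members. In the families described here these were MIR181A1, MIR181A2, MIR181B1, MIR181B2, MIR16-2, MIR30C1 and MIR125B1, each by the 5p arm that carries the family seed, so their counts rest on the other arm or on longer reads.

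The miR-148/152 family (CAGUGCA) was split. MIR148B had 4484, 3022, 4376, 3698, 3271 and 4102 CPM and MIR152 4500, 3713, 4284, 4186, 2988 and 3655 CPM, both highest in parental cells. MIR148A, given above, was 2.53 (2.36 to 2.72) times parental in FL and 1.98 (1.84 to 2.14) times in ΔLa-module. Of the miR-15/16 family (AGCAGCA), which represses cell cycle genes, MIR15B, MIR16-2 and MIR424 were all lower in every line, though 1 or 2 of the 3 only were lower in ΔNTR and ΔNTD under some scalings. For the miR-30 family (GUAAACA) the sum of MIR30A, MIR30C1 and MIR30E ran from 6624 CPM in ΔNTD to 10002 CPM in ΔNTR. MIR30D (11120 to 13914 CPM) and MIR30B (630 to 1279 CPM), miR-30 genes by name, had no seed here and are not in this sum or in the family count. The pair MIR379 and MIR411 of the 14q32 domain shares the seed AUGUAAC on the 3p strands.

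By position, 80 members lay in introns of protein-coding genes and 27 in introns of long noncoding RNA genes. Exons of another gene on the same strand overlapped 375 of the 1877 microRNA genes, and 9 of these passed the minimum, against 131 of the 1502 without such an exon. Reads over such an exon count as ambiguous. This touches genes known from glioma: MIR21, overlapping an exon of VMP1, was listed at 0 in all 6 libraries, as were the 6 genes of MIR17HG, MIR155, MIR34A and MIR137. Each of these 10 overlaps such an exon, so these zeros are no measure of their levels. Of the microRNA genes of other cell types that overlap no such exon, MIR124-3 (neurons) had 0 counts. The muscle genes MIR1-1 and MIR206 had at most 1 and at most 7. The endothelial MIR126 was a member at 21.7 to 40.9 CPM, and MIR145 (smooth muscle and fibroblasts) a member at 165 to 448 CPM. Of the 5 epithelial genes of the list, MIR200C was a member at 36.0 to 52.3 CPM. The other 4 were no members, with 87 to 153 counts for MIR200B, 13 to 38 for MIR200A, 1 to 12 for MIR141 and 0 to 2 for MIR429.

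For 107 members a host gene was in the tables, and 79 pairs with 69 hosts had at least 100 PE150 counts of the host in every library. Members and hosts come from separate libraries of the same lines. Both lay on the same side of parental in 41 of 79 pairs in FL (51.9%), 55 in ΔNTR (69.6%), 47 in ΔLa-module (59.5%), 52 in ΔNTD (65.8%) and 49 in ΔCTR (62.0%). The Spearman rho over the pairs was -0.0727, 0.423, 0.162, 0.315 and 0.439, over genes that share libraries and, in part, hosts. Hosts spanned -0.94 to 0.80 log2, and 0 to 4 of them per line lay past 1.5-fold.

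MIR335 and MEST stood at 0.65 and 0.75 log2 in ΔNTR. MEST had 58.9, 67.4, 99.4, 73.2, 65.8 and 74.2 CPM in the order used above. The ΔNTR library was the highest for both genes. MIR145, a smooth muscle microRNA in the noncoding gene CARMN, had 448, 176, 317, 165, 203 and 285 CPM, and CARMN had 9.68, 6.05, 7.80, 5.63, 4.56 and 6.25 CPM. Parental cells were highest for both and ΔNTR was second. MIR1271 and its host ARL10 went apart in FL, where the member stood at -0.92 and the host at 0.33 log2. These 3 pairs were chosen after their values were seen.

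Of 24 genes of microRNA processing and silencing, 22 passed 100 counts in every PE150 library. On the log2(CPM + 1) scale none of the 22 was 1.5-fold from parental in any line. Among all 10910 such genes the shares past this fold, higher and lower, were 0.266 and 0.137% for FL, 3.02 and 0.651% for ΔNTR, 1.32 and 0.568% for ΔLa-module, 1.08 and 0.632% for ΔNTD and 0.412 and 0.174% for ΔCTR. DROSHA stood at 105 to 120 CPM, DICER1 at 137 to 155 CPM and AGO2, the Argonaute that cleaves its targets, at 132 to 139 CPM. The 22 genes spanned -0.25 (TNRC6C in ΔLa-module) to 0.57 (AGO4 in ΔNTR) log2. AGO4 had 17.2 CPM in the parental line, 25.3 in FL, 26.2 in ΔNTR, 20.5 in ΔLa-module, 22.6 in ΔNTD and 21.5 in ΔCTR. Parental was thus its lowest line, and on plain CPM AGO4 in ΔNTR lay just past 1.5-fold. LIN28A, which blocks let-7 processing, had no counts, and LIN28B had 76 to 141.

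The iCLIP peak lists were each pooled by the authors from 3 replicates and cleared of parental peaks. Peaks at the members were counted without the same count over other genes of like length, so they are not called few or many. The FL and ΔCTR lists held 1 peak each that overlapped a member by at least 1 nt on its strand. Both lay at MIR320A, a hairpin known for skipping DROSHA, with a score of 3 for each. The lists held 14334 and 15870 peaks in all. The ΔNTR list (17180 peaks), the ΔLa-module list (636) and the ΔNTD list (291) held none. Within 100 nt there was also 1 peak near MIR3940 in ΔNTR and 1 in ΔCTR. The depth of the iCLIP libraries is unknown here, so a list without a peak sets no limit on binding.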

How the data were processed

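The authors trimmed input reads with TrimGalore and aligned them with STAR to GRCh38 with GENCODE annotation. The deposited counts are STAR's raw counts per gene, in which only reads over exons of 1 gene enter; ambiguous and multimapping reads stay out. The deposited peak score is the sum over 3 iCLIP replicates after merging Clippy peaks and subtracting parental peaks. Per the labels, STAR was version 2.7.10b.

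Forward-strand counts of 6 SE50 and reverse-strand counts of 6 PE150 libraries were scaled with TMM factors (edgeR 4.0.16) over genes with a mean of at least 10 counts, with a pseudocount of 1 CPM. Of 62750 gene identifiers, 62625 matched GENCODE V44, used here on the same build. CPM have exact Poisson intervals and ratios exact binomial intervals. PCR copies cannot be told from molecules. The scaling gave back known folds on simulated counts with Poisson noise alone and MIR100 left unchanged. That simulation cannot tell how the scaling fares with the MIR100 differences of the real libraries. Samples were grouped by the labels.

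Members and lists were chosen with earlier results of these data known. Named were the 10 highest members, the 3 highest and 3 lowest differences per line, the 5 widest and 5 narrowest ranges, members of clusters or families of 3 or more, and genes at the minimum. MIR98, MIR1271, MIR125B1, the rest of the 14q32 domain and the genes given with their hosts were chosen after their values were seen.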

Additional observations from a re-analysis of the deposited data

How the results depend on the processing

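With 1 library per line and protocol, differences between cultures and lines cannot be separated, leaving out a library was not possible, and no p-value was computed. No paired analysis was possible because no line has a second input library and no test was made. No named member at least 1.5-fold from parental changed direction, and the other members were not checked for this. The scalings shifted all genes of a library alike, by at most 0.35 log2, which is less than 1.5-fold. They could therefore not turn such a member, and a difference that vanished was not counted as a change of direction. With the unstranded column 8 of the 9 members at 14q32 were lower than parental in every line. MIR127 was then not among those at least 1.5-fold lower in every line. The median difference of the members in FL, ΔNTR, ΔLa-module, ΔNTD and ΔCTR was -0.42, 0.10, -0.39, -0.04 and -0.02 with library totals. With TMM factors over microRNA genes it was -0.12, 0.02, -0.05, 0.03 and -0.03. It was -0.11 in FL, -0.13 in ΔNTD and -0.08 in ΔCTR with totals without MIR100, and -0.09 in ΔNTR and -0.34 in ΔCTR without a filter on low counts. Members past 1.5-fold in ΔNTD numbered 20 with library totals and 21 with TMM factors over microRNA genes, against 33. In ΔCTR they numbered 10 with either of these and with totals without MIR100, against 17. At 2-fold they numbered 16 in FL, 1 in ΔNTR, 15 in ΔLa-module, 14 in ΔNTD and 2 in ΔCTR. Members with their highest level in parental cells numbered 55 (41.7%, against 28.2% of all 227 genes), and 27 with library totals and 26 with TMM factors over microRNA genes, a count chosen after seeing the data. Within 100 nt of a member there were 1 peak in ΔNTR and 2 in ΔCTR. Size factors of DESeq2, a pseudocount of 10 CPM and the unstranded column moved no summary by over its limit.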
